A study of Apis mellifera with 6 samples.

Results

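The effect of pollen in the diet was read from 4 of the 6 libraries of hypopharyngeal gland RNA in the series. The Pollen libraries (n = 2) came from worker honeybees (Apis mellifera) of colonies given honey with an ample supply of rape pollen, and the Honey libraries (n = 2) from colonies given honey alone. Queens were caged in all 4 colonies, which wound down the brood, so that pollen was the labelled difference between the groups. Each library stands for 1 colony, and how many bees went into a library is not stated. The Brood libraries (n = 2), from colonies with pollen and a freely laying queen, enter only where the spread of the test was shared or where an abundance range was set without the compared libraries. The sample labels give ages of 9 and 10 days after emergence for Pollen 1 and 2 and of 11 and 12 days for Honey 1 and 2, whereas the design text of the series puts every bee at 9 days. If the sample labels hold, diet and age cannot be told apart.

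The hypopharyngeal glands are a pair of long glands in the head of the worker. In nurse bees their secretory lobes enlarge and release the proteins of royal jelly and brood food, which nurses feed to larvae and to the queen. Pollen is the colony's source of protein and lipid, while honey supplies mainly sugar. Workers deprived of pollen are known to have small glands. In a secretory tissue of this kind a few transcripts can take up much of the messenger RNA, and such transcripts then shape every value that is expressed as a share of the library.

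The files list 10704 gene models by position and do not pair them with gene names, and none of their IDs matched the reference table of gene names used here, so the labelled tissue was not checked against marker genes and models are given by linkage group and position. The 4 libraries held 2764870 to 4153354 counted fragments. In bulk RNA, more secretory cells and more RNA per secretory cell cannot be told apart. With 2 against 2 libraries an exact two-sided permutation test cannot give a p below 0.333, so sums and shares are given per library without a test, and single models are judged by edgeR's quasi-likelihood test over 6943 models.

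Pollen-fed glands put far more of their RNA into very few gene models. It took 8 models in Pollen 1 and 11 in Pollen 2 to account for 50% of the fragments, against 117 in Honey 1 and 88 in Honey 2. For 90% of the fragments the numbers were 763 and 1054 in Pollen and 1861 and 1517 in Honey. The groups did not overlap in either measure. The effective number of models, the exponential of the Shannon entropy of the shares, was 144 in Pollen 1, 193 in Pollen 2, 676 in Honey 1 and 548 in Honey 2. The share in each library's own 10 most abundant models was 53.6% and 49.9% in Pollen and 26.8% and 28.0% in Honey. The difference between groups was 24.3 percentage points for the 10 most abundant models, 20.04 points for the 100 most abundant and 7.40 points for the 1000 most abundant. The most abundant model of each library accounted for only 2.72 points of it.

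**Figure D1:**
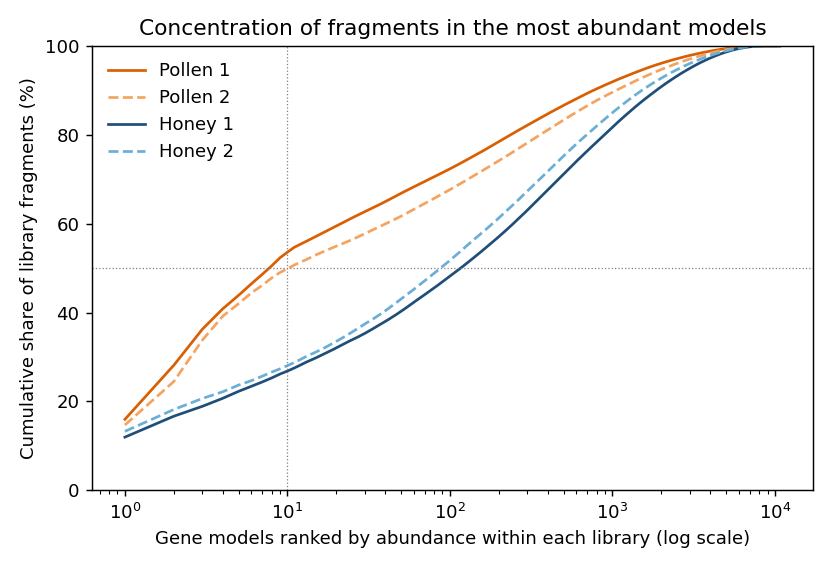
Cumulative share of library fragments (%) against the number of gene models, ranked within each library on a log axis. Dotted lines mark 10 models and 50% of fragments, which the Pollen curves reach at 8 and 11 models and the Honey curves at 117 and 88.

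A fixed set of models carried the difference. There were 10 models with a mean of 10000 CPM or more over the 4 libraries, where CPM is the fragment count scaled to a common library size by trimmed mean of M-values (TMM). Together they held 52.8% of fragments in Pollen 1, 49.0% in Pollen 2, 20.2% in Honey 1 and 22.0% in Honey 2. Without the single most abundant of them, a model on linkage group 6 at bases 15407272 to 15408113, the shares were 36.9% and 34.3% in Pollen and 8.22% and 8.72% in Honey. These 10 include 2 models listed at exactly 0 in at least 1 library of the series although another library has 10000 or more of their fragments. For 1 of them, on linkage group 11 at bases 2604510 to 2607949, only the Brood libraries are at 0. Without those 2 the set held 32.5% and 39.2% in Pollen and 20.03% and 21.9% in Honey, and the groups still did not overlap. Because high values in either group bring a model into this set, its difference is a description.

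Outside those 10 models the groups lay closer together in the measures given here. The 10 models and the ranges were set on these same libraries, so this is a description. Overlap of 2 against 2 libraries does not show that the groups were alike, and ranges set from Brood are given further on. Of the remaining fragments, models at 100 to 1000 CPM held 42.0% and 43.0% in Pollen and 42.1% and 44.2% in Honey. Models at 1000 to 10000 CPM held 38.2% and 33.7% in Pollen and 31.5% and 33.5% in Honey, and those at 10 to 100 CPM held 17.03% and 19.7% in Pollen and 22.5% and 19.3% in Honey. The groups overlapped in the first and the last of these ranges, and in the middle one they lay apart by less than the replicates of either group did. The 10 most abundant models of the remainder held 14.0% and 11.0% of it in Pollen and 12.4% and 11.9% in Honey. The effective number of models in the remainder was 996 and 1286 in Pollen and 1394 and 1200 in Honey, again overlapping. The number of models with any fragment was compared in 2 ways. At an equal total of 2764870 fragments, the expected number was 8260 and 8552 in Pollen and 8733 and 8633 in Honey, without overlap. When each library's own 10 most abundant models were set aside and 1778265 other fragments were drawn, it was 8424 and 8672 in Pollen and 8657 and 8565 in Honey, with the groups overlapping.

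Gains of share were concentrated and losses were diffuse. In mean share of the library, 1660 models gained and 7752 lost from Honey to Pollen, each side summing to 39.2 percentage points, as shares must. The 10 largest gainers held 89.9% of all gains, and 3 models held over 50% of them. The 10 largest losers held 24.3% of all losses, and 111 models were needed for 50%.

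**Figure D2:**
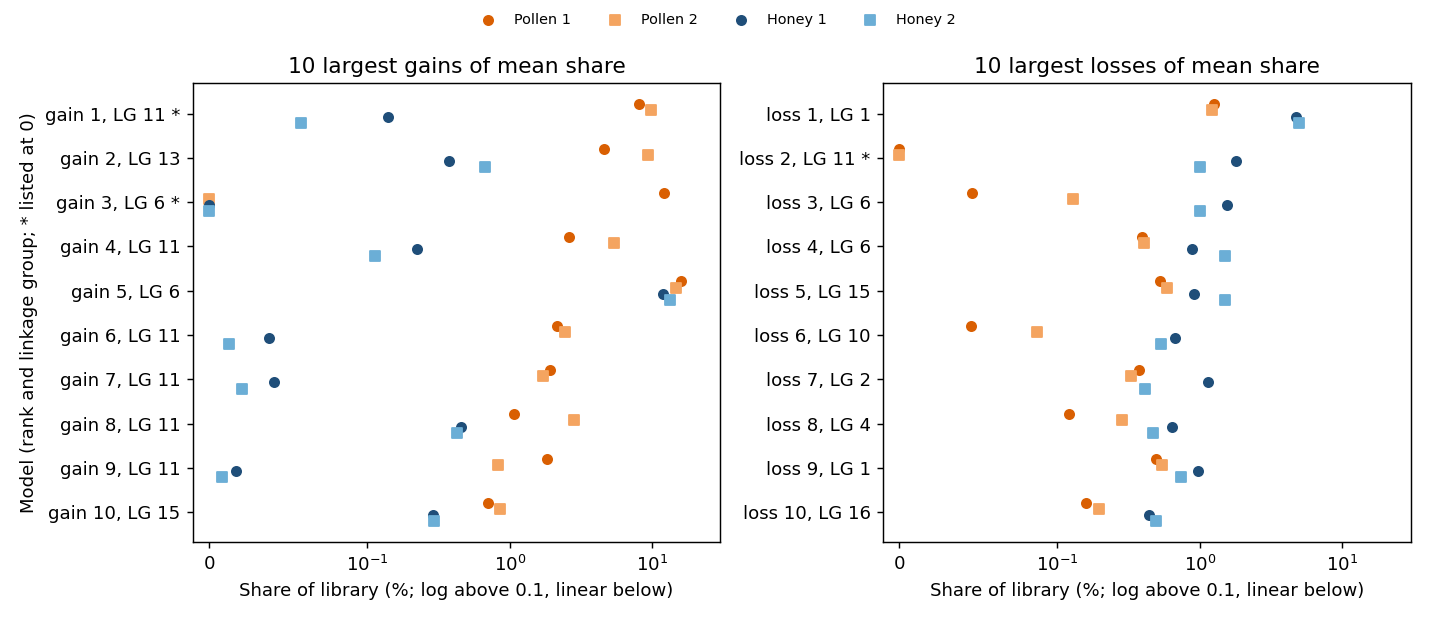
Share of library fragments (%, linear below 0.1 and logarithmic above) in each of the 4 libraries for the 10 models with the largest gain and the 10 with the largest loss of mean share, labelled by rank and linkage group (LG). Stars mark models with such zeros, listed at 0 in 1 library and abundant in another, and 6 of the 10 gainers lie on linkage group 11.

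The largest gain of share fell on a model of linkage group 11 (bases 2604510 to 2607949), which is listed at 0 in both Brood libraries. Its share was 8.12% in Pollen 1, 9.80% in Pollen 2, 0.141% in Honey 1 and 0.0584% in Honey 2. The next gain was that of gene10274 (linkage group 13, bases 7932097 to 7935133), a model of 1482 bases. Its fragment counts were 189777 in Pollen 1, 331094 in Pollen 2, 15399 in Honey 1 and 18690 in Honey 2. Every Pollen value lay far above both Honey values, although the Pollen libraries differed from each other, at 4.57% and 9.34% of fragments. The level was 74204 ± 23733 CPM in Pollen and 3242 ± 1716 CPM in Honey (SD, n = 2 each), a log2 change of 4.52 (SE 0.63; adjusted p = 0.00130, edgeR), or 22.9-fold. With the labelled age as a covariate this call was lost (log2 change 5.47; adjusted p = 0.0924, edgeR). Within each group the labelled age rises with the replicate number, so that fit extends the step between replicates across the groups. The third gain rested on 1 library alone. That model, on linkage group 6 at bases 4035400 to 4081096, counted 506115 in Pollen 1 against 0 in each of Pollen 2, Honey 1 and Honey 2. The Brood libraries counted 26420 and 5336. It is given as listed, with no fold change.

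Among the other gainers, the most abundant model of all, at bases 15407272 to 15408113 of linkage group 6, went only from 12.0% and 13.3% of fragments in Honey to 15.96% and 14.7% in Pollen. Its log2 change of 1.17 (SE 0.60) did not pass the test (adjusted p = 0.298, edgeR). A model on linkage group 15 at bases 6115532 to 6120177, only 258 bases long, counted 29154 and 30329 in Pollen against 12035 and 8188 in Honey. It rose 4.85-fold (log2 change 2.28, SE 0.44; adjusted p = 0.00966, edgeR), and it overlaps 1 other model. The remaining 5 of the 10 gainers lie close together on linkage group 11 and are described with their neighbours.

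Of the 10 largest losers of share, 9 had a log2 change below 0 after TMM scaling, and 3 of them passed the test. The largest loser, on linkage group 1 at bases 3291823 to 3297146, held 4.71% and 4.92% of fragments in Honey and 1.26% and 1.22% in Pollen, with replicates close together. Relative to the bulk of models, its log2 change was -1.06 (SE 0.47) and did not pass the test (adjusted p = 0.225, edgeR). Of the 3 called lower, 1 is a model of linkage group 11 (bases 2569547 to 2572833) listed at 0 in both Pollen libraries beside 74052 and 27774 fragments in Honey. The other 2 were gene4810, given next, and a model on linkage group 10 at bases 12829933 to 12831074. The latter counted 1888 and 3090 in Pollen against 27708 and 14648 in Honey, a 5.03-fold fall (log2 change -2.33, SE 0.41; adjusted p = 0.00517, edgeR). It overlaps 1 other model. For the remaining 1 of the 10, on linkage group 1 at bases 7307328 to 7311554, the log2 change had the other sign, at 0.18 (adjusted p = 0.868, edgeR), since TMM scaling removes most of the shift that the abundant models put on all others.

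The model gene4810 (linkage group 6, bases 189128 to 190923) counted 64237 in Honey 1, 27784 in Honey 2, 1913 in Pollen 1 and 4576 in Pollen 2. It was the called model with the largest loss of share among those not listed at 0, and its log2 change was -3.04 (SE 0.49; adjusted p = 0.00321, edgeR). Of the models that fell and were eligible to be named, which leaves out those listed at 0, the one with the smallest p was gene4809, which encloses gene4810 on the other strand (bases 175095 to 198140). It counted 5075 and 4280 in Honey against 351 and 306 in Pollen, a log2 change of -3.15 (SE 0.36; adjusted p = 0.000433, edgeR). With the labelled age as a covariate both calls were lost (adjusted p = 0.400 for gene4810 and 0.114 for gene4809, edgeR). Fragments of this overlapping pair may not be separable, since use of strand in the counting is not stated. Among models that rose, gene13370 (an unplaced scaffold, bases 35 to 1903) had the smallest p of those eligible to be named. It counted 10544 and 9634 in Pollen against 124 and 61 in Honey, with replicates of each group close to one another once scaled (log2 change 7.56, SE 0.64; adjusted p = 0.000116, edgeR). It kept its call with age as a covariate (adjusted p = 0.0217, edgeR). It held only 0.263% ± 0.0126 of Pollen fragments (SD, n = 2), so that a change larger than that of gene10274 moved far less of the library.

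Over all models tested, 428 passed edgeR's quasi-likelihood test, which is 6.16% of 6943, with 300 higher in Pollen (4.32%) and 128 lower (1.84%). Without the 5 of these that are listed at 0 in some libraries, the 296 higher ones had a median change of 4.02-fold and a median level of 22.7 CPM, and the 127 lower ones a median change of 3.27-fold and a median level of 27.5 CPM. Changes of 10-fold or more numbered 42 among the higher and 13 among the lower. Called models were thus mostly of moderate abundance, far below the few that set the library shares. The count of calls moved when single libraries were left out, with 134 models called without Honey 1 (74 higher, 60 lower), 185 without Honey 2 (139 higher, 46 lower), 292 without Pollen 1 and 361 without Pollen 2. The number of the 428 called again was 122 without Honey 1, 175 without Honey 2, 228 without Pollen 1 and 286 without Pollen 2. Of the 428, 90 were called in the same direction without each of the 4 libraries in turn, 66 higher and 24 lower. With the labelled age as a covariate, read from steps of 1 day within groups, 33 models passed the test, 31 higher and 2 lower. Those steps coincide with the replicate number, so age and replicate number cannot be told apart in that fit. In that fit 424 of the 428 kept their direction. Scaled by library totals, the median model shifted by -0.90 on the log2 scale and the split became 136 higher and 2312 lower.

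The share of models called differed between ranges of abundance. Called models made up 3 of the 24 tested models under 1 CPM (12.5%), 3.67% of 2994 at 1 to 10 CPM, 7.59% of 3058 at 10 to 100, 8.37% of 777 at 100 to 1000 and 13.8% of 80 at 1000 to 10000. The passing of the filter by those 24 could rest on 1 group where they are high or on the Brood libraries. Their share of calls and their median change are therefore not read as a result. At 10000 CPM and over, 7 of 10 were called, all 7 higher, including 2 listed at 0. The median log2 change was 0.42 under 1 CPM, -0.02, -0.04, 0.09 and 0.19 in the next 4 ranges and 4.97 in the last, against -0.01 over all 6943. At 1 to 10 CPM the differences between groups and between replicates were of similar size. On log2(CPM + 1), the median absolute difference between group means was 0.39 there, against 0.39 between the Pollen replicates and 0.33 between the Honey replicates. It was 0.37 against 0.29 and 0.27 at 10 to 100 CPM, and 0.42 against 0.28 and 0.32 at 100 to 1000. At 1000 to 10000 CPM it was 0.57 against 0.36 and 0.49, and at 10000 CPM and over it was 5.01 against 0.60 and 0.56. A difference between means of 2 libraries carries less noise than one between single libraries, so near-equal values do not show that the groups were alike.

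The ranges above use the compared libraries themselves. Ranges were also set from the Brood libraries, which are not in the comparison but come from colonies given pollen too. A model raised by pollen can fall in a high range there for that reason, so the steps are a description. The median log2 change was -0.17 at 1 to 10 CPM (2656 models), 0.05 at 10 to 100 (3247) and 0.27 at 100 to 1000 (630). It was 0.84 at 1000 to 10000 (91) and 2.28 at 10000 and over (11). Of the 91 models at 1000 to 10000 CPM in Brood, 80 had a log2 change above 0, and 11 were called higher and 2 lower (14.3%). Over all 6943 tested models, 3418 had a log2 change above 0, and 300 were called higher and 128 lower (6.16%). Most models in each range up to 10000 CPM did not pass the test singly. The 308 tested models under 1 CPM in Brood are left out here, since their passing the filter on low values could rest on the compared libraries. With each library's trend with model length removed the medians were -0.20, -0.00, 0.22, 0.58 and 1.72 in the same order of ranges.

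**Figure D3:**
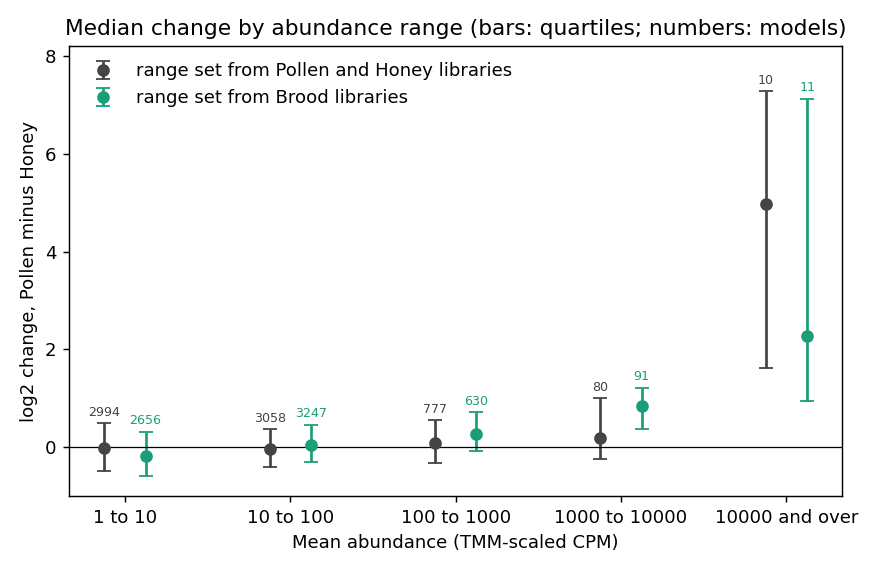
Median log2 change (Pollen minus Honey) of tested models in 5 ranges of mean TMM-scaled CPM, with bars for the quartiles and the number of models above each. Grey ranges were set from the Pollen and Honey libraries. Green ranges were set from the Brood libraries, whose colonies were also given pollen, and there the medians climb from -0.17 to 2.28.

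Few of the 10704 models were present in 1 group and absent from the other. Fragments in both libraries of 1 group and none in the other were found for 59 models in Pollen and 122 in Honey. Leaving out models listed at 0, these had at most 83 fragments in a Pollen library and 21 in a Honey library. All 4 libraries had a fragment of 7885 models, and none had a fragment of 1292. No model had 10 or more fragments in both Pollen libraries and 0 in both Honey libraries. In the other direction there were 2, the model of linkage group 11 listed at 0 above and 1 with at most 21 fragments. A count of 0 allows up to 3 fragments, or 0.722 to 1.09 CPM of the library total.

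By linkage group, only 3 of the 16 gained mean share. The models of linkage group 11 held 20.6% and 26.5% of fragments in Pollen and 8.47% and 7.24% in Honey, a clear separation. Those of linkage group 13 held 6.03% and 10.9% in Pollen and 3.22% and 3.65% in Honey, and without gene10274 the difference of 5.05 points became -1.38 points. Linkage group 6 held 34.1% and 19.2% in Pollen and 19.98% and 21.7% in Honey, so its groups overlapped. Its gain of 5.79 points became -0.30 without the model that, of the 4 libraries, had fragments in Pollen 1 alone. Without its largest mover linkage group 11 still gained 6.84 points. The largest loss fell on linkage group 1, with 5.90% and 6.32% in Pollen and 13.3% and 12.7% in Honey, a difference of -6.88 points of which 1 model accounted for -3.57.

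**Figure D4:**
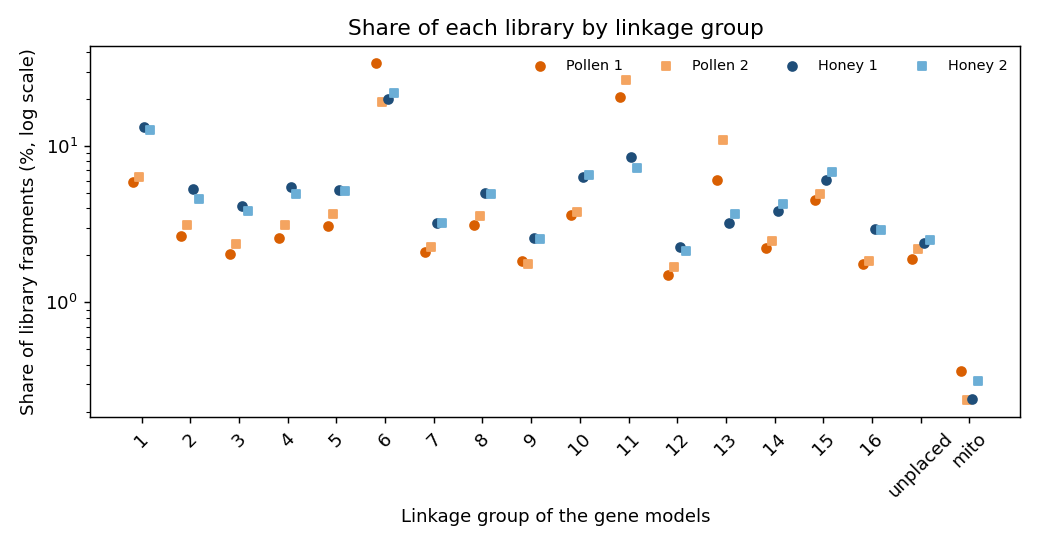
Share of library fragments (%, log scale) of all gene models on each linkage group, on unplaced scaffolds and on the mitochondrial genome (mito), with 1 point per library. On linkage groups 11 and 13 both Pollen points lie above both Honey points, on linkage group 6 only Pollen 1 does, and on every other linkage group both Pollen points lie below.

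Called models were spread over all 16 linkage groups without such a concentration. The share of tested models called ran from 4.31% on linkage group 5 to 8.85% on linkage group 13, against 6.16% over all. On linkage group 3 there were 9 higher and 13 lower, whereas on linkage groups 15 and 16 there were 17 and 10 higher against 3 and 1 lower. Among called models, 70 of the 300 higher ones (23.3%) and 22 of the 128 lower ones (17.2%) had a next tested model called in the same direction, where 4.32% and 1.84% of all tested models were called in those directions. Overlapping models, whose fragments may be shared, are among these.

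Few longer neighbourhoods stood out. A neighbourhood was taken as 4 or more models called in 1 direction, each starting within 50 kb of the next. There were 4, holding 21 of the 300 higher and 4 of the 128 lower models. With age as a covariate 2 of these 25 models were called. Sums over the called models of a neighbourhood are descriptions, since the calls that chose the models fix their direction and favour groups that lie apart.

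The largest neighbourhood, on linkage group 11 from 2554644 to 2678190, spans 123547 bases and 16 models, of which 14 were tested and 11 called higher, 10 of them on the plus strand. Summed over the 10 called models that are not listed at 0, the level was 120199 and 128101 CPM in Pollen 1 and 2 and 4241 and 3874 CPM in Honey 1 and 2, a 30.6-fold difference of means. It was 26.6-fold without the most abundant model of the sum, and 17.4-fold when the 2 models listed at 0 were added, as 1 of them goes the other way. The other of the 2, at 2604510 to 2607949, is at 0 only in the Brood libraries. The abundant models lie between 2563562 and 2614036, towards the near end of the span. The one at 2586955 to 2590494 counted 108121 and 189922 in Pollen against 9271 and 3163 in Honey, a 43.0-fold rise (log2 change 5.43, SE 0.64; adjusted p = 0.000571, edgeR). The one at 2610927 to 2614036 counted 88691 and 86271 in Pollen against 1556 and 362 in Honey, and rose 173-fold (log2 change 7.44, SE 0.77; adjusted p = 0.000200, edgeR). The smallest rise among these abundant models was 7.74-fold, at 2581588 to 2584699, which already counted 18741 and 11833 in Honey beside 44838 and 99720 in Pollen.

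Scarcer models downstream of the abundant ones were called higher too. Immediately downstream, the model at 2614875 to 2618809 counted 224 and 191 in Pollen against 13 and 0 in Honey. Further on, the model at 2632487 to 2644204 counted 5 and 8 in Pollen against 1 and 0 in Honey, near the floor of 3 fragments. It counted 25 and 34 in the Brood libraries, through which it passed the filter on low counts. At the far end a model on the minus strand, at 2674460 to 2678190, counted 487 and 306 in Pollen against 186 and 73 in Honey, and rose 5.47-fold (log2 change 2.45, SE 0.34; adjusted p = 0.00133, edgeR). It overlaps a model at 2662410 to 2675638 that counted 189 and 157 in Pollen against 193 and 190 in Honey and did not pass the test (log2 change 0.51; adjusted p = 0.439, edgeR). At the near end the model at 2554644 to 2560104 was called higher on 1 library, with 187 fragments in Pollen 1, 1 in Pollen 2 and 1 and 0 in Honey. These models are neighbours on the sequence, and whether fragments of the abundant ones were counted in scarce ones was not tested.

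**Figure D5:**
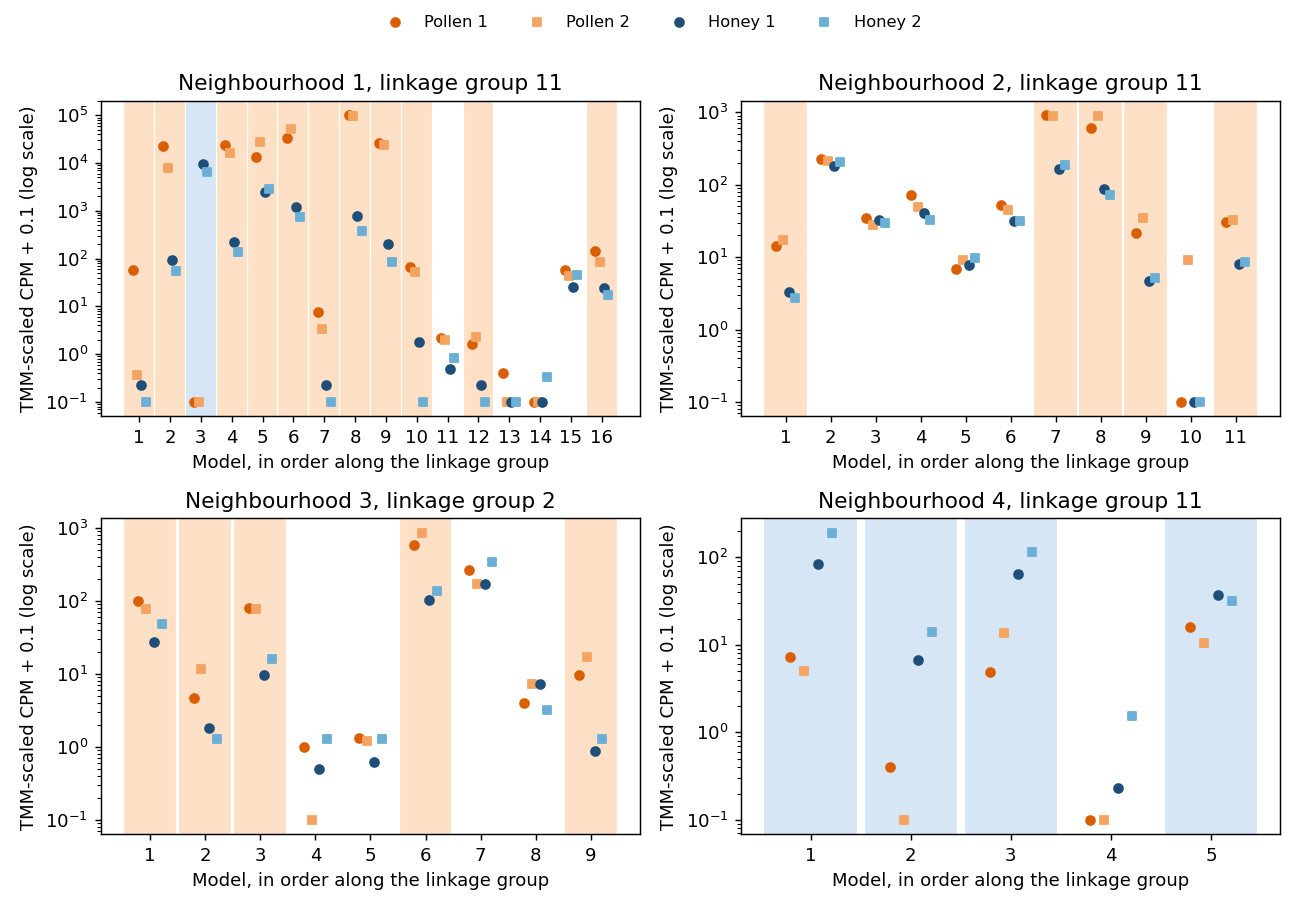
TMM-scaled CPM plus 0.1 (log scale) of every model in the 4 neighbourhoods, in order along the linkage group, with 1 point per library. Orange bands mark models called higher in Pollen and blue bands models called lower, and in the first panel 11 of 16 models are banded orange while the third model is listed at 0 in both Pollen libraries.

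Another neighbourhood on linkage group 11, from 11123138 to 11217829, held 5 higher models among 10 tested. Their summed level was 1594 and 1846 CPM in Pollen and 270 and 277 CPM in Honey, a 6.29-fold difference, with replicates close in both groups. The model at 11166165 to 11178825 counted 3040 and 3234 in Pollen against 1264 and 791 in Honey, and rose 5.09-fold (log2 change 2.35, SE 0.34; adjusted p = 0.00174, edgeR). The model that overlaps its end on the other strand, at 11178015 to 11191225, counted 2012 and 3182 in Pollen against 665 and 303 in Honey, and rose 9.27-fold (log2 change 3.21, SE 0.45; adjusted p = 0.00149, edgeR). There are 3 overlapping pairs among the 5 models. The 5 tested models that lie between the first and second of them did not pass the test, with log2 changes from -0.12 to 0.71.

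On linkage group 2, from 13419688 to 13503648, 5 of 7 tested models were called higher. They summed to 769 and 1041 CPM in Pollen and 144 and 205 CPM in Honey, a 5.18-fold difference, and no 2 of them overlap. The model at 13465249 to 13480649 made up most of this, with counts of 1905 and 3116 in Pollen against 792 and 581 in Honey (5.90-fold; log2 change 2.56, SE 0.40; adjusted p = 0.00276, edgeR). It overlaps a model outside the 5, at 13478895 to 13487548, which did not pass the test (log2 change -0.25; adjusted p = 0.770, edgeR). That model counted 880 and 612 in Pollen against 1294 and 1448 in Honey. The smallest change was 2.34-fold, at 13419688 to 13422548 (adjusted p = 0.0388, edgeR). Only 1 of the 5 was called without Honey 1, while 4 were called without each of the other 3 libraries.

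The single neighbourhood of lower models, on linkage group 11 from 13243548 to 13263091, had all 4 of its tested models called. They summed to 28.1 and 28.9 CPM in Pollen and 192 and 350 CPM in Honey, a 9.51-fold difference of means, and the Honey libraries differed from each other. The model at 13243548 to 13245120 counted 24 and 18 in Pollen against 636 and 800 in Honey, and fell 22.4-fold (log2 change -4.49, SE 0.55; adjusted p = 0.000621, edgeR). The next model, at 13246927 to 13248172, counted 1 and 0 in Pollen against 50 and 58 in Honey. It overlaps the model at 13248076 to 13256551, which counted 16 and 49 in Pollen against 488 and 480 in Honey. Without Pollen 2, Honey 1 or Honey 2, 3 of the 4 were called, which is below the minimum for a neighbourhood.

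Classes of model by length and origin had shares of calls near that of all models. Called models made up 6.68% of the shortest quintile of tested models by length (171 to 996 bases) and 6.70% of the longest quintile (3686 to 59940 bases). By direction there were 78 higher and 15 lower among the shortest and 48 higher and 45 lower among the longest, a difference that was not tested. The median log2 change fell with length, at 0.36, 0.09, -0.06, -0.15 and -0.22 from the shortest to the longest quintile. Over all tested models it was -0.01. Of the 289 tested models added by the authors outside the mitochondrial genome, 14 were higher and 9 lower (7.96%), and as a group they held 0.737% and 0.9503% of fragments in Pollen and 1.86% and 1.43% in Honey. Of 428 tested models on unplaced scaffolds, 20 were higher and 6 lower (6.07%). The 4 mitochondrial loci held 0.365% and 0.237% of fragments in Pollen and 0.239% and 0.316% in Honey, with the groups overlapping, and none was called.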

How the data were processed

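Per the labels' protocols, an NEBNext Ultra kit made the libraries. Aligner, counter, annotation and genome build are not given in the sources used here. Per the file headers, the authors deposited for each model a raw fragment count, a normalized count, used here as a signal in 1 alternative only, and an FPKM value, used only with limma. The header line repeated inside each file was dropped. Of 10704 models, 360 were added by the authors, and 0 IDs matched the reference table (12398 genes, Amel_HAv3.1). Linkage groups were read from the sequence identifiers. Raw counts were filtered with filterByExpr (minimum count 10; 6943 models kept), scaled by TMM and tested with edgeR 4.0.16 (R 4.3.3), two-sided, with all 6 libraries in 1 fit of 3 group means and 3 residual degrees of freedom, and models with an adjusted p (Benjamini-Hochberg) under 0.05 were called. SE is the log2 change divided by the root of its F. A model was listed at 0 if it had 0 fragments in at least 1 of the 6 libraries and 10000 or more in another. Models overlapping such a model with the same zeros were added, giving 6 in all. Expected numbers of models at equal depth are hypergeometric expectations. Each library came from its own colony, per the labels, and the spread includes that between colonies. Models named by ID were, in each direction, the called model with the largest change in share and the one with the smallest p, among numbered models not listed at 0 whose groups did not overlap. Members, ranges and rules were chosen with earlier results of these data known. Alternatives also used DESeq2 1.42.0 and limma 3.58.1, and columns of other samples numbered 0.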

Additional observations from a re-analysis of the deposited data

How the results depend on the processing

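The number of models that differed (428) was within 1.5 times of that in the fit of the 4 libraries alone (589), with DESeq2 (417), with DESeq2's size factors (433), with the stricter filter (504), with the length trend removed (366) and without the models listed at 0 (434). It became 795 without a filter, 109 against a change of 2-fold, 33 with age as a covariate (31 higher, 2 lower), 2448 with library totals, and 3522 (116 higher, 3406 lower) and 2502 (90 higher, 2412 lower) with limma on FPKM rescaled to a common sum at pseudocounts of 1 and 0.1. The rescaled FPKM and the library totals keep the shift of the median model, and the other causes were not tested. It ran from 134 to 361 without single libraries. With the replicate number as a block, which within groups rises with the labelled age, it was 435, and 398 of the 428 were called again. Same-numbered Pollen and Honey libraries did not deviate together (correlation -0.094 across models). The group difference in the share of the 10 most abundant models (24.3 points, 22.4 to 26.1 without single libraries) was 17.7 points without the models listed at 0, 2.72 for the single most abundant model, 20.04 for 100 models, 7.40 for 1000 and 29.9 for the same 10 models in each library. The median log2 change at 1 to 10, 10 to 100, 100 to 1000, 1000 to 10000 and 10000 CPM and over was, in that order, -0.91, -0.93, -0.79, -0.69 and 4.14 with library totals and -0.17, 0.047, 0.27, 0.84 and 2.28 with ranges set from Brood. At 1 to 10 CPM it was -0.12 with the length trend removed, and at 10000 CPM and over it was 3.73 without the models listed at 0. Without single libraries these medians ran from -0.087 to 0.058, from -0.059 to -0.0049, from -0.018 to 0.23, from 0.072 to 0.50 and from 4.09 to 5.16. The 4 neighbourhoods became 12 with 3 called models as the minimum and 192 with library totals, of which 190 were of lower models, and numbered 2 (without Honey 1) to 5 without single libraries. The log2 ratio of the largest neighbourhood's sum (4.94; 4.87 to 5.002 without single libraries) was 4.05 with library totals, 4.12 with the models listed at 0 and 4.73 without its most abundant model. Of 68 values for the 4 models named by ID, 65 kept the call and 3 lost it, all with age as a covariate, where the log2 changes were 5.47 for gene10274 (adjusted p = 0.0924, edgeR), -2.32 for gene4810 (0.400) and -2.95 for gene4809 (0.114). Groups of 2 were too small to look for outlying libraries, and depth limits what can be said of models under about 1 CPM.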
